A study of Arabidopsis thaliana and Zea mays with 12 samples.

Results

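The plastid genome of Arabidopsis thaliana encodes part of each complex of photosynthesis, and 43 of these genes were followed here on 6 arrays of leaf RNA. They were the genes whose symbol is rbcL or begins with psa, psb, pet, ndh or atp and a capital letter, and which have a probe set annotated to them alone. Each of the 43 had 1 such probe set, so none had to be chosen among several, and all 43 lie in the plastid genome in the TAIR10.1 gene table. They stand among 13356 genes with a probe set of their own on the array. They fall into 1 gene of Rubisco (rbcL), 5 of photosystem I (psa), 15 of photosystem II (psb), 6 of the cytochrome b6f complex (pet), 6 of ATP synthase (atp) and 10 of the NADH dehydrogenase-like complex, NDH (ndh). The gene ndhB, present in 2 copies, was left out because its probe set is annotated to both.

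The samples were 3 arrays of plants labelled phenotype Br and 3 of plants labelled phenotype Ag, all leaf samples of 2-week-old plants taken about midway through the photoperiod. The labels describe neither the genotype nor any treatment behind the names Br and Ag. Each array held RNA pooled over several plants and is labelled a biological replicate, so a p-value measures the spread between pools. The arrays of a second species in the series were not used.

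In chloroplasts, the photosystems, the cytochrome b6f complex and ATP synthase carry light-driven electron transport and ATP formation, and Rubisco fixes carbon dioxide. NDH returns electrons to the plastoquinone pool around photosystem I. The plastid genes mostly lie in operons read by a bacterial-type polymerase as long precursors, which are then cut, edited and trimmed, so that neighbouring genes start out on shared RNA. Most plastid mRNAs lack a stable poly(A) tail.

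Intensities are on the linear scale of the deposited table, where each array has a trimmed mean of 100 over all probe sets. Over all 22746 probe sets the median intensity ranged from 35.3 to 37.5 on the Br arrays and from 32.3 to 35.8 on the Ag arrays. The plastid genes were bright. Of the 43, 42 had a mean above the median probe set and 34 were above the 90th percentile. Leaf genes of the nucleus were bright as well. RCA, for Rubisco activase, averaged 4319 ± 103 in Br and 5612 ± 1011 in Ag (SD, n = 3 each). Of the root markers 2 were measured. The root hair expansin gene EXPA7 averaged 9.85 ± 6.33 in Br and 10.5 ± 5.71 in Ag, and PYK10, a beta-glucosidase gene of roots, read 65.9 to 438 in Br and 163 to 236 in Ag. The part of root RNA in the results was not tested. In whole leaf RNA, fewer cells or plastids of a kind and less RNA in each cannot be told apart. The intensity of one probe set says nothing of another's level, so each gene was compared only with itself.

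Each difference is the log2 change Br minus Ag, on log2(intensity + 16), given on a quantile-normalized scale, where all arrays share the same distribution, and on the scale as deposited. The test was limma's, adjusted by Benjamini-Hochberg over all probe sets, with a call at an adjusted p under 0.05. By that rule 2 of the 43 genes rose in Br, petN and rbcL, and 0 fell, the same genes on both scales. That is 4.65% of the 43. Of all probe sets 2.08% were called on the quantile-normalized scale, 0.963% higher and 1.12% lower, and 2.2% on the deposited scale, 1.16% higher and 1.04% lower. At an unadjusted p under 0.05 there were 7 genes higher and 1 lower on the quantile-normalized scale, which is 18.6% of the 43 against 16.1% of all probe sets (8.23% higher and 7.87% lower). The higher genes were petN, rbcL, psbC, psbD, psaA, psaJ and atpH, and the lower one was ndhA. On the deposited scale there were 7 higher and 5 lower, 27.9% of the 43 against 16.4% of all probe sets (9.58% higher and 6.85% lower), and atpB, atpE, ndhI and petB joined ndhA among the lower. The Br and Ag arrays did not overlap for 9 of the 43 on the quantile-normalized scale, 20.9% against 20.4% of all probe sets, with Br above for 7 (9.98% of all probe sets) and below for 2 (10.4%). On the deposited scale they did not overlap for 13, which is 30.2% against 20.7%, with Br above for 6 (12.1% of all probe sets) and below for 7 (8.67%). By direction, the higher genes at an unadjusted p under 0.05 made up 16.3% of the 43 on the quantile-normalized scale and the lower one 2.33%. The genes with Br above Ag on all arrays made up 16.3% and those with Br below 4.65%. On that scale shares near the array's when both directions are counted were above it for higher genes and below it for lower ones. As deposited the higher genes made up 16.3% and the lower ones 11.6%, with Br above for 14% and below for 16.3%. Each of these was above the array's share, so the lower genes fell short of it on the quantile-normalized scale only.

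**Figure D1:**
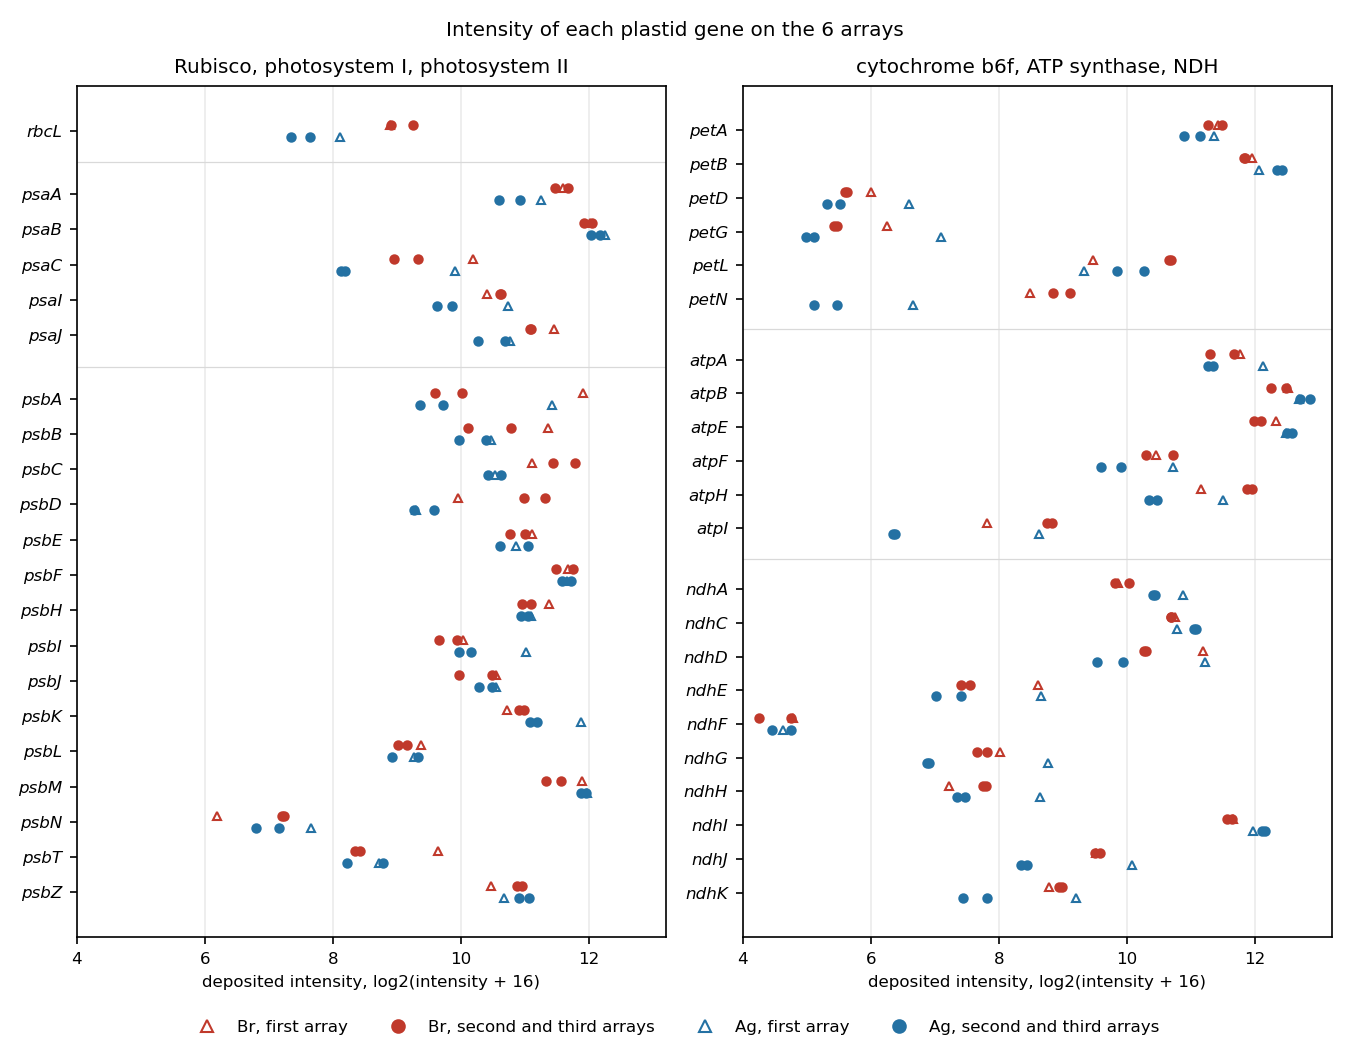
Deposited intensity of each of the 43 plastid genes, as log2(intensity + 16), on the 3 Br arrays (red, upper row of each gene) and the 3 Ag arrays (blue, lower row), with the first array of each group as an open triangle. The groups are far apart for petN, from 342 to 534 in Br against 18.7 to 85.2 in Ag, while for genes such as psbA, psaC and ndhE the first arrays of both groups lie far to the right of the others.

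The gene with the largest change of the 43 on both scales was petN, for a small subunit of the cytochrome b6f complex. It read 342, 446 and 534 on the Br arrays, against 85.2, 28.5 and 18.7 on the Ag arrays. Every Br array was above every Ag array, with the highest Ag value on the first array. The log2 change was 3.04 ± 0.38 on the quantile-normalized scale (SE, n = 3 each, limma adjusted p = 0.013) and 3.06 ± 0.39 on the deposited scale (adjusted p = 0.013). Its call was lost in 4 of the alternative fits, with limma adjusted p of 0.073 when array 2 of Ag was left out, 0.073 for array 2 of Br, 0.076 for array 3 of Br and 0.056 with a pseudocount of 1. The size of the petN change depended on the pseudocount and on the first arrays. It was 3.52 with a pseudocount of 1, 2.25 with one of 64, and 3.67 when both first arrays were dropped. With a single array left out it ran from 2.71 to 3.48. Its Ag values on arrays 2 and 3 lay below the median intensity of those arrays, 32.3 and 34.5.

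The other called gene was rbcL, for the catalytic large subunit of Rubisco. It read 457, 466 and 596 on the Br arrays, against 261, 148 and 184 on the Ag arrays, so the groups did not overlap. The log2 change was 1.33 ± 0.22 on the quantile-normalized scale (SE, n = 3 each, limma adjusted p = 0.033) and 1.32 ± 0.21 as deposited (0.031). Its call was lost in 5 of the alternative fits, with limma adjusted p of 0.11 and 0.13 when array 2 or 3 of Ag was left out, 0.12 and 0.13 for array 2 or 3 of Br, and 0.099 with a pseudocount of 1. The log2 change then ran from 1.15 to 1.40.

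The 5 photosystem I genes had positive log2 changes on the quantile-normalized scale, with a median of 0.73, and 4 of 5 were positive on the deposited scale, with a median of 0.63. Over all probe sets 49.6% and 55.0% were positive on these scales, with medians of -0.0018 and 0.028. The photosystem I median was 0.45 without array 2 of Ag and 0.48 without array 3 of Ag. None of the 5 passed the limma test over all probe sets, while 2, psaA and psaJ, had an unadjusted p under 0.05. The gene psaA, for one of the large reaction centre proteins that bind the chlorophylls of photosystem I, read 3088, 2819 and 3263 in Br against 2428, 1525 and 1921 in Ag. Its groups did not overlap, and its log2 change was 0.86 ± 0.21 (limma adjusted p = 0.097; 0.66 and adjusted p = 0.13 as deposited). Its partner psaB, for the other large protein, read 4116, 3879 and 4210 in Br against 4877, 4166 and 4606 in Ag. There the arrays overlapped on both scales, and the sign depended on the scale, with log2 changes of 0.14 ± 0.14 (limma adjusted p = 0.70) and -0.16 as deposited.

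The small subunit gene psaJ read 2777, 2163 and 2149 in Br against 1732, 1640 and 1217 in Ag, without overlap (log2 change 0.73 ± 0.17, limma adjusted p = 0.095; 0.63 as deposited). The gene psaI, for another small subunit, read 1343, 1569 and 1552 in Br, against 1689, 912 and 774 in Ag. Its Ag arrays spread across the Br range, since the first Ag array was above all Br arrays and the other two below. The gene psaC, for the protein that holds the iron-sulphur clusters at the acceptor side, had the widest spread of the 5, at 1150.0, 478 and 627 in Br against 944, 263 and 276 in Ag. The first array was the highest in both groups.

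The photosystem II genes are given as those of the large core proteins and those of the small proteins, a split made after the values had been seen and not tested. All 4 of the large core genes (psbA, psbB, psbC and psbD) had positive log2 changes on both scales, with medians of 0.81 and 0.69. Of the other 11 psb genes 6 were positive on the quantile-normalized scale and 4 as deposited, with medians of 0.016 and -0.10, and their quantile-normalized changes reached from -0.45 to 0.24. With median centring in place of quantile normalization the median over all 15 was -0.060, against 0.19. None of the 15 was called by limma, and psbC and psbD had an unadjusted p under 0.05.
The largest change in photosystem II was that of psbD, for the reaction centre protein D2. It read 979, 2001 and 2528 in Br against 616, 601 and 749 in Ag. The groups did not overlap, the first Br array being the closest to Ag, and the log2 change was 1.46 ± 0.35 (limma adjusted p = 0.097; 1.37 and 0.095 as deposited). The gene psbC, for the chlorophyll-binding antenna protein CP43, also had its lowest Br value on the first array and did not overlap, at 2195, 2758 and 3504 in Br against 1463, 1359 and 1571 in Ag. Its log2 change was 1.07 ± 0.22 (limma adjusted p = 0.065; 0.91 and 0.059 as deposited). Without the first Br array both passed, psbD with a log2 change of 1.88 (limma adjusted p = 0.0085) and psbC with 1.299 (0.021). They also passed when only probe sets brighter than the median were tested (0.048 and 0.032). Each of the 2 genes was called in 4 of the 16 alternative fits. For psbD the limma adjusted p was 0.21, 0.25 and 0.20 without array 1, 2 or 3 of Ag. It was 0.27 without array 2 of Br. The coding regions of psbD and psbC overlap in the gene table, so their signals may not be independent.

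The gene psbB, for the antenna protein CP47, read 2622, 1093 and 1747 in Br against 1405, 987 and 1333 in Ag, and the groups overlapped (log2 change 0.55 ± 0.31). The reaction centre protein D1 is encoded by psbA, known for its rapid turnover in light. Its intensity was 3828, 755 and 1020 in Br against 2726, 641 and 829 in Ag. Both first arrays were far above the other four, the groups overlapped, and the log2 change of 0.39 ± 0.73 did not pass (limma adjusted p = 0.86; 0.34 as deposited). It turned to -0.33 without the first Br array and was 0.30 without both first arrays. With same-numbered arrays taken as blocks, a pairing the labels do not state, it was 0.39 ± 0.13 (limma adjusted p = 0.24).

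Among the small photosystem II genes, psbE and psbF, for the subunits of cytochrome b559, had log2 changes of 0.24 and 0.19, and psbF read between 2863 and 3441 in Br and between 3033 and 3358 in Ag. The lowest log2 change of the complex was that of psbI, at 1032, 796 and 961 in Br against 2060, 1128 and 987 in Ag (log2 change -0.45 ± 0.28, limma adjusted p = 0.50; -0.51 as deposited). Array 3 of Ag lay inside the Br range, so the groups overlapped. Next to it stood psbK, for another small core subunit, at 1674, 1897 and 2016 in Br against 3759, 2309 and 2157 in Ag. Every Ag array was above the Br arrays as deposited, but they overlapped after quantile normalization (log2 change -0.38 ± 0.23; -0.51 as deposited). The gene psbM, for a further small subunit, read 3771, 2568 and 3023 in Br against 4000, 3746 and 3965 in Ag (log2 change -0.14 ± 0.16, limma adjusted p = 0.74). The product of psbN, known in tobacco as an assembly factor, is not a subunit. The gene read 56.9, 134 and 132 in Br against 186, 127 and 96.0 in Ag. The log2 changes of psbH, psbJ, psbL, psbT and psbZ lay between -0.0021 and 0.24 on the quantile-normalized scale.

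Of the 6 cytochrome b6f genes petN was the called one, 3 had positive changes on either scale, and the median was 0.15, against 0.12 as deposited. Without array 1 of Ag that median was 0.43, and without array 2 of Ag 0.079. The gene petA, for cytochrome f, read 2733, 2858 and 2442 in Br against 2603, 1881 and 2248 in Ag. Its groups did not overlap after quantile normalization but did as deposited (log2 change 0.40 ± 0.17, limma adjusted p = 0.31; 0.26 as deposited). The gene petB, for cytochrome b6, read 3930, 3644 and 3633 in Br against 4254, 5197 and 5449 in Ag. As deposited its Br arrays were all below its Ag arrays, with a log2 change of -0.40 ± 0.14 (limma adjusted p = 0.21), and on the quantile-normalized scale they overlapped, with -0.11 ± 0.11 (0.68). The gene petD, for subunit IV, was dim, at 48.0, 32.5 and 33.2 in Br against 80.6, 29.6 and 23.7 in Ag (log2 change -0.14 ± 0.32). The small subunit genes petG and petL were not called. The gene petG was dim, at 60.6, 28.3 and 27.1 in Br against 121, 18.7 and 15.6 in Ag, with the first array highest in both groups. The gene petL had the first array lowest in both groups, at 689, 1631 and 1603 in Br against 625, 1214 and 901 in Ag (log2 change 0.55 ± 0.38).

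Of the 6 ATP synthase genes 5 had positive changes on the quantile-normalized scale and 3 as deposited, with medians of 0.32 and 0.21. With a single array left out the median ran from 0.12 to 0.63. The genes fell into those of the membrane part, which carries the protons, and those of the catalytic head. The membrane part genes atpI (subunit a), atpH (the ring subunit c) and atpF (a stalk subunit) had log2 changes of 1.33, 1.06 and 0.49. As deposited these were 1.35, 0.89 and 0.41. The head genes atpA, atpB and atpE had 0.15, 0.06 and -0.05, and -0.0016, -0.34 and -0.38 as deposited. None passed by limma, atpH had an unadjusted p under 0.05, and the split was made after the values had been seen. The gene atpI read 209, 438 and 415 in Br against 379, 65.7 and 66.9 in Ag, so that a single Ag array, the first, lay in the Br range (limma adjusted p = 0.35). The gene atpH read 2254, 3733 and 3941 in Br against 2876, 1280 and 1400 in Ag, with the first arrays again between the later Ag and the later Br arrays (limma adjusted p = 0.24). The gene atpB, for the catalytic beta subunit, read 5815, 4844 and 5702 in Br against 6589, 6655 and 7397 in Ag. Its Br arrays were all lower as deposited, with a log2 change of -0.34 ± 0.13 (limma adjusted p = 0.26), while on the quantile-normalized scale the value was 0.06 ± 0.11 and the groups overlapped. The epsilon subunit gene atpE, whose coding region overlaps that of atpB in the gene table, read 5106, 4042 and 4368 in Br against 5728, 5749 and 6077 in Ag (log2 change -0.05 ± 0.12; -0.38 ± 0.13 as deposited, limma adjusted p = 0.21).

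Of the 10 NDH genes 5 had positive and 5 negative changes on either scale, with medians of 0.03 and 0.07, and none was called by limma. The sign and size of the NDH median rested on single arrays: it was 0.40 without array 1 of Ag, 0.18 without array 2 of Br and 0.08 without array 3 of Br, and it was -0.06, -0.07 and -0.10 without array 2 of Ag, array 3 of Ag and array 1 of Br. The lowest was ndhA, for a membrane subunit, at 915, 1027 and 887 in Br against 1851, 1368 and 1339 in Ag. The groups did not overlap on either scale, and the log2 change was -0.60 ± 0.18 (limma adjusted p = 0.15; -0.67 and 0.097 as deposited). The gene ndhI, for an iron-sulphur subunit of the connecting arm, read 3220, 3012 and 3155 in Br against 3976, 4413 and 4523 in Ag, again without overlap (log2 change -0.20 ± 0.10, limma adjusted p = 0.41; -0.46 as deposited, 0.11). The gene ndhC, for a membrane subunit, did not overlap as deposited, at 1633 to 1699 in Br against 1733 to 2153 in Ag (log2 change -0.26, limma adjusted p = 0.39).

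The arm subunit genes ndhK and ndhJ stood the other way. The gene ndhK read 422, 490 and 476 in Br against 575, 157 and 209 in Ag (log2 change 0.76 ± 0.42, limma adjusted p = 0.44), and ndhJ read 719, 744 and 709 in Br against 1070, 310 and 329 in Ag (log2 change 0.59 ± 0.44). In both genes the Br arrays were close together, and the first Ag array was above them while the other Ag arrays were below. Without the first Ag array, the one above the Br arrays, both passed. The log2 changes were then 1.299 for ndhK (limma adjusted p = 0.032) and 1.17 for ndhJ (0.019). With any other array left out ndhK did not pass. Its limma adjusted p was 0.73 and 0.67 without array 2 or 3 of Ag. It was 0.43, 0.64 and 0.68 without array 1, 2 or 3 of Br. Each gene was called in 2 of the 16 alternative fits. The genes ndhD, ndhE, ndhG and ndhH, for further membrane and arm subunits, had log2 changes between -0.24 and 0.40 and Ag arrays that differed among themselves by more than that. The gene ndhF, for a membrane subunit, was the gene of the 43 below the median probe set, at 3.10 to 11.6 in Br and 5.996 to 11.1 in Ag.

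**Figure D2:**
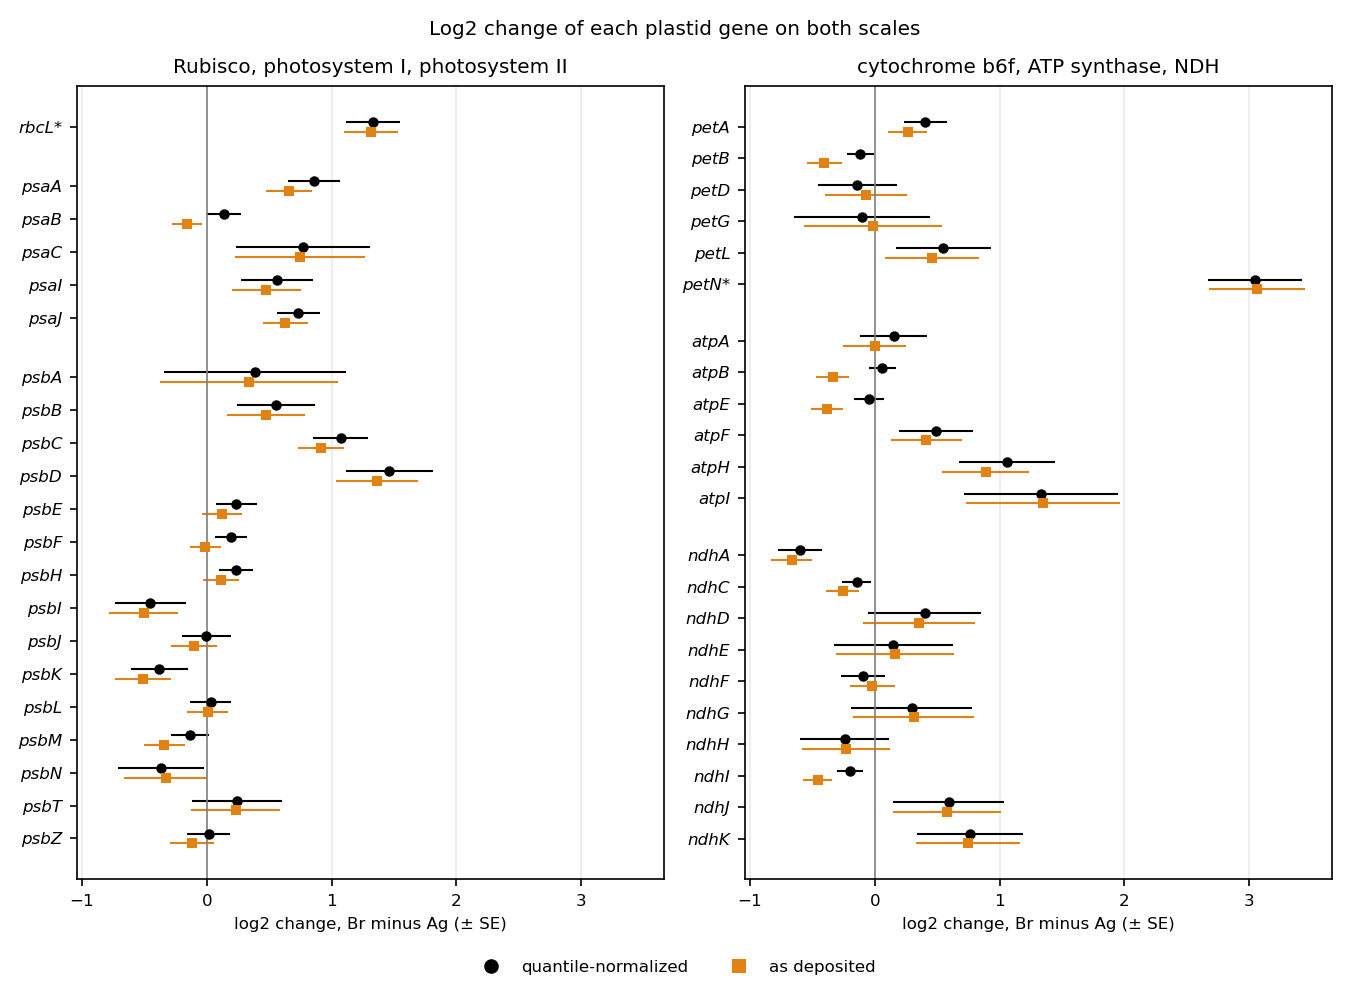
Log2 change, Br minus Ag, with its SE, for each gene on the quantile-normalized scale (black circles) and as deposited (orange squares); an asterisk marks an adjusted p under 0.05 on both scales. Only petN and rbcL carry one, and the gap between the scales is widest for atpB (0.40), atpE (0.33), psaB (0.29) and petB (0.29).

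The first Ag array stood apart from the other Ag arrays for many of these genes. It was the highest Ag array for 32 of the 43 (74.4%), against 36.5% of all probe sets. For 15 genes (34.9%) the first array was the highest in both groups, against 15.4% of all probe sets. For 5 genes (11.6%) it was the lowest in both, against 16.5%. The excess of the first Ag array over the mean of the other Ag arrays was largest for atpI, at 2.23 on the log2 scale, and exceeded 1.4 for petG, psbA, ndhG, psaC, ndhJ, ndhK, ndhD and ndhE. On the first Br array the same genes were not uniformly high. The excess there was 2.14 for psbA, 1.15 for ndhE and 1.06 for psaC, but -0.01 for ndhJ, -0.18 for ndhK and -0.97 for atpI. The spread between arrays was accordingly wider in Ag, with a median SD over the 43 genes of 0.22 in Br and 0.37 in Ag on the log2 scale. Over all probe sets the medians were 0.19 in Br and 0.19 in Ag. In NDH the medians were 0.15 in Br and 0.78 in Ag. In photosystem II, by contrast, 4 of 15 genes had the larger SD in Ag, with medians of 0.29 in Br and 0.24 in Ag.

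**Figure D3:**
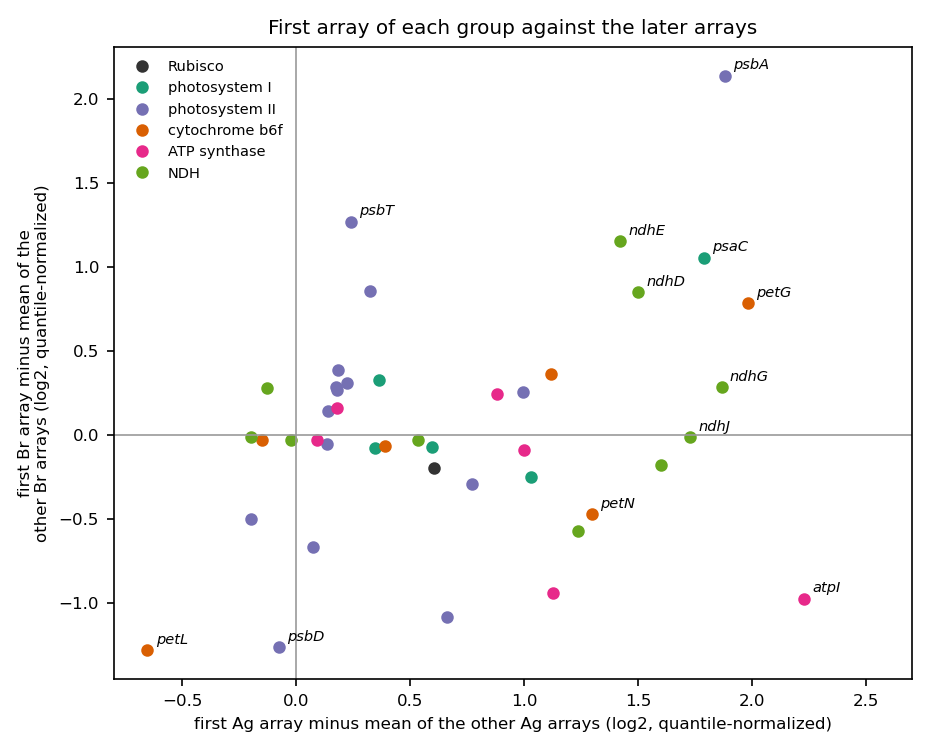
Each point is a plastid gene, coloured by complex, with the log2 excess of the first Ag array over the mean of the other Ag arrays across and that of the first Br array upward, both quantile-normalized. The gene psbA is high on both axes (1.88 for Ag and 2.14 for Br), atpI is high in Ag (2.23) and low in Br (-0.97), and petL is low on both.

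When the first array of both groups was left out, 9 of the 43 genes passed by limma, all higher in Br, and 0 were lower. That is 20.9% of the 43, against 2.34% of all probe sets in the same fit (1.23% higher and 1.11% lower). These were petN, rbcL, atpI, atpH, psbC, psbD, psaI, ndhJ and ndhK. That fit rested on arrays 2 and 3 of each group alone. The genes atpI and atpH, psbD and psbC, and ndhK and ndhJ are neighbours in operons, so these calls may not be independent. The log2 change of atpI was then 2.42 (limma adjusted p = 0.0081) and that of atpH 1.76 (0.017). With each array left out in turn the number called higher ranged from 0 to 4. Array 1 of Ag left out gave 4 (0.519% of all probe sets were then called higher), array 1 of Br gave 4 (1.97%), array 3 of Ag gave 1, and array 2 of Ag, array 2 of Br and array 3 of Br each gave 0. Testing only probe sets brighter than the median gave 4 (2.16%), and array weights gave 5 (1.93%).

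The log2 changes were also read along the operons in their order of transcription, which is given here from general knowledge of the plastid genome. Only the genes of the 43 were read, and operons can hold others before, between or after them. In the gene table each of the 10 operons has these genes in that order along the plastid genome, or in its reverse. They hold 35 of the 43 genes. Of the genes read, the first had a higher log2 change than the last in 7 of the 10 operons on the quantile-normalized scale and in 6 as deposited. Over all the settings tried this count ran from 6 to 8. Of the 7 operons with 3 or more of the genes, 4 went down at every step on the quantile-normalized scale, those that start with psbB, psbD, psbE and atpI, and 2 as deposited. Over all the settings tried this count ran from 2 to 4. It was 2 without array 2 of Ag and without array 1, 2 or 3 of Br, and likewise without both first arrays, with median centring and with a pseudocount of 64.

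In the atpI operon the changes were 1.33 for atpI, 1.06 for atpH, 0.49 for atpF and 0.15 for atpA. In the psbD operon they were 1.46 for psbD, 1.07 for psbC and 0.02 for psbZ, a small photosystem II subunit. In the psbB operon they were 0.55 for psbB, 0.24 for psbT, 0.24 for psbH, -0.11 for petB and -0.14 for petD. As deposited petB had -0.40 and petD -0.07, so that series did not fall at its last step. The SE of the quantile-normalized changes in this operon reached 0.36, for psbT. The operon of psaA and psaB gave 0.86 and 0.14. The long ndhH operon ran the other way, with -0.24 for ndhH and -0.60 for ndhA near its start, and 0.77 for psaC and 0.40 for ndhD near its end. In the ndhC operon ndhC had -0.14, and ndhK and ndhJ had 0.76 and 0.59. The petL operon also ended higher than it began, with 0.55 for petL, -0.10 for petG and 0.73 for psaJ. None of the 35 genes passed by limma, and 6 had an unadjusted p under 0.05 on the quantile-normalized scale. Of all 43 genes 18.6% had one, and of all probe sets 16.1%. No test was made of the order of the genes.

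Control probe sets at the 3' and 5' ends of housekeeping transcripts differed between the groups as well. The 3' to 5' signal ratio of ubiquitin was 1.21, 0.908 and 1.01 on the Br arrays against 1.76, 2.35 and 2.01 on the Ag arrays. For actin it was 1.64, 1.74 and 1.20 on the Br arrays against 1.94, 1.90 and 2.35 on the Ag arrays. Every Ag array was above every Br array for both, and for GAPDH they overlapped, at 0.72 to 0.80 in Br and 0.79 to 0.90 in Ag. The part of this difference in the calls and in the operon values was not tested.

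**Figure D4:**
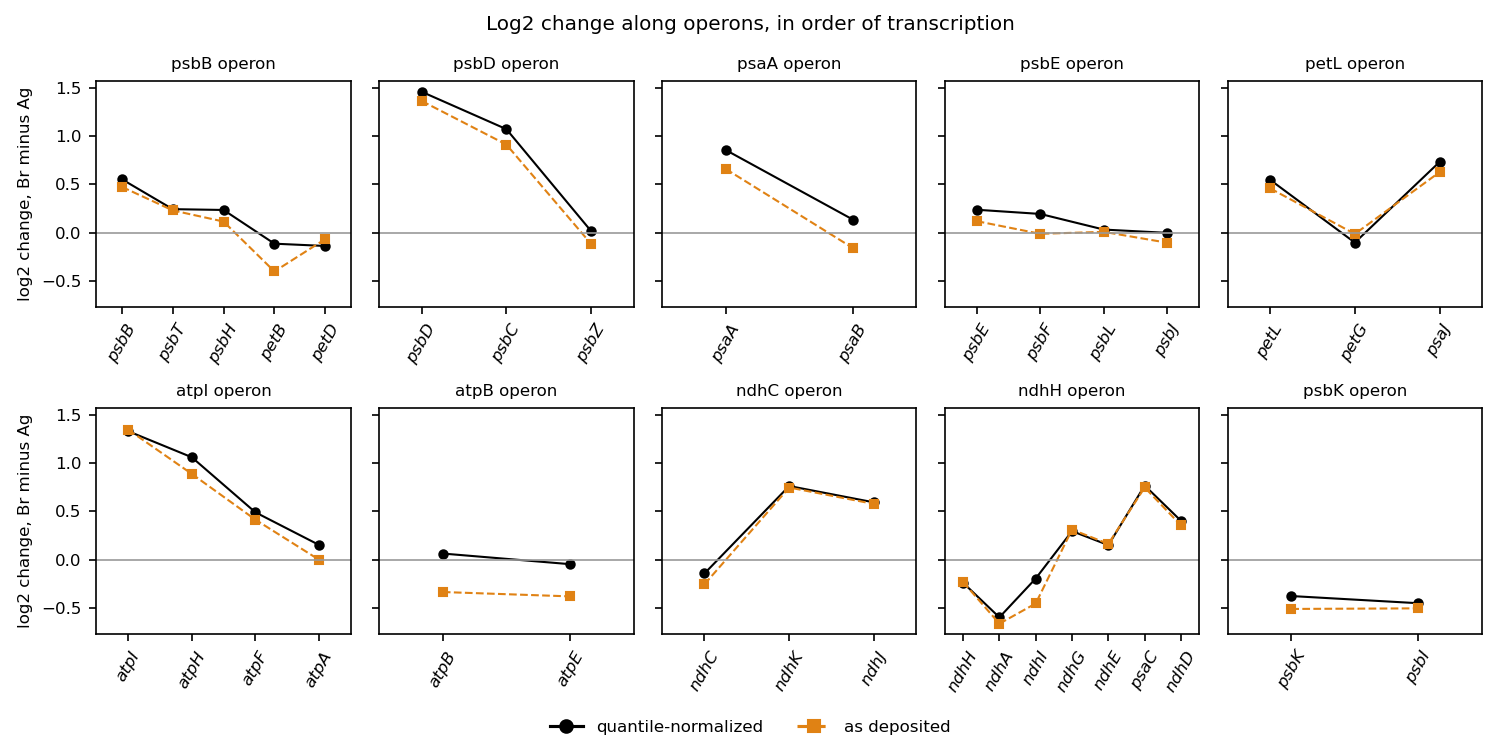
Log2 change, Br minus Ag, along 10 plastid operons, each panel with its genes among the 43 in order of transcription, on the quantile-normalized scale (black, solid) and as deposited (orange, dashed). The atpI and psbD operons start at 1.33 and 1.46 and end at 0.15 and 0.02, while the ndhC and ndhH operons end higher than they begin.

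The choice of scale mattered most for the brightest probe sets. The 99th percentile of intensity was 1841 to 1916 on the Br arrays and 1948 to 2115 on the Ag arrays, and quantile normalization removes that difference. For the 14 genes with a mean intensity of 2000 or more, the median log2 change was 0.14 after quantile normalization and -0.09 as deposited, and 9 and 5 of the 14 were positive. For the 15 genes under 1000 the medians were 0.24 and 0.23, with 10 positive on both scales. The sign differed between the scales for 5 genes, atpA, atpB, psaB, psbF and psbZ, and 0 of these was called on either scale. Over all 43 genes the median was 0.24 and 29 were positive after quantile normalization, against 0.12 and 24 as deposited. The median was 0.051 with median centring. With a single array left out it ran from 0.051 without array 2 of Ag to 0.33 without array 1 of Ag, and it was 0.16 without array 3 of Ag and 0.14 without array 1 of Br.

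**Figure D5:**
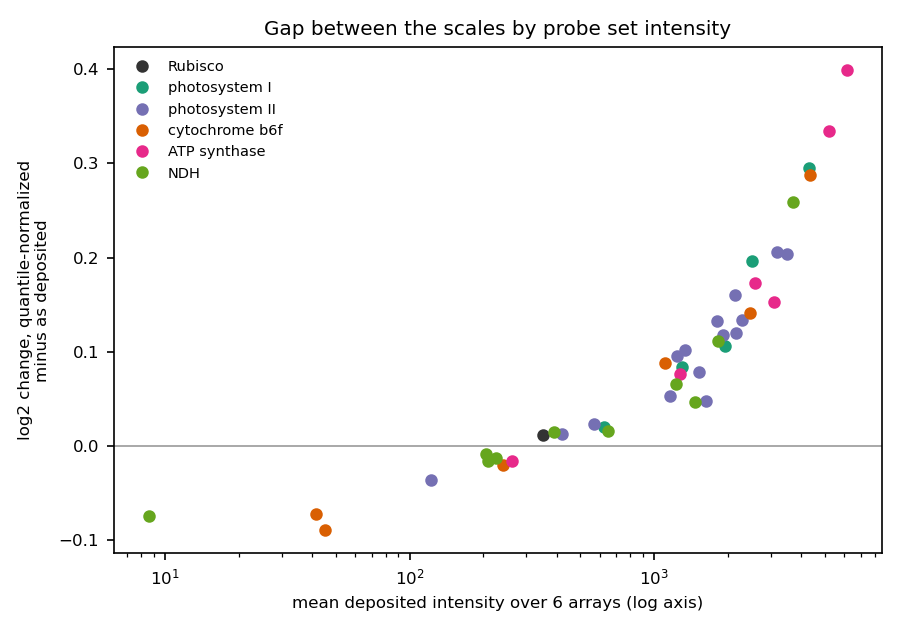
The log2 change on the quantile-normalized scale minus that on the deposited scale, for each gene, against its mean deposited intensity over the 6 arrays on a log axis, coloured by complex. The gap is below 0 for petD, petG and ndhF, among others of low intensity, and reaches 0.40 for atpB.

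Nuclear genes for subunits of these complexes and for factors tied to them are given for comparison, and the difference between the lists was not tested. For the cytochrome b6f complex no such gene was measured. Of 12 measured nuclear genes of the photosystems and their antennae, ATP synthase, NDH and Rubisco's activase, 3 were positive after quantile normalization, with a median of -0.06, and 1 as deposited, with a median of -0.34. None passed by limma, and 1 (8.33%) and 6 (50.0%) had an unadjusted p under 0.05, all with lower values in Br. Of all probe sets 16.1% and 16.4% had one, 7.87% and 6.85% with lower values in Br. The nuclear gene ATPC1, for the gamma subunit in the head of ATP synthase, read 3811, 3370 and 3745 in Br against 4210, 4420 and 4781 in Ag, without overlap as deposited (log2 change 1.3e-05, limma adjusted p = 1.00; -0.29 and 0.29 as deposited).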

How the data were processed

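Probe set values of 6 one-colour Affymetrix ATH1 arrays were used. The deposited values are intensities on a linear scale, and in the deposited table the trimmed mean of each array, with 2% left out at either end, equals 100; the summary method is not given in the sources used here. RNA pools were biotin-labelled, per the labels' protocols. The 64 control probe sets were removed, leaving 22746. Of these 13513 are annotated to 1 gene, 503 to several and 8730 to none listed, and all 43 members matched the TAIR10.1 table. Intensities were transformed to log2(intensity + 16), quantile-normalized between arrays, and tested two-sided with the lmFit and eBayes functions of limma 3.58.1 under R 4.3.3. The same fit on the deposited scale stands beside it. On simulated Br and Ag arrays of 22746 probe sets, 200 changes were planted, only in probe sets above the highest array median on all 6 arrays. Of the planted changes 41% of those of 2-fold and 85% of those of 4-fold were found, and 4 of 130 calls were false. The simulated noise was independent between arrays, so shifts shared by arrays and changes of dim probe sets were not covered. The number of arrays limits the precision. Plots used matplotlib 3.10.9.

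Members and lists were chosen with earlier results of these data known. The rule for genes given with their tests took all called members, the highest and lowest change and highest mean in each complex, rbcL and psbA. Further members are described, some of them chosen after their values were seen. Of these psbC, psaJ, petA, atpH, ndhC and ndhJ are also given with tests, outside that rule. Alternatives covered the scale, pseudocount, dim probe sets, a replicate block, the variance model, array weights and each array left out. No sequence is shown, as no sequence table was used here.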

Additional observations from a re-analysis of the deposited data

How the results depend on the processing

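The number of the 43 genes called higher in Br was 2 on the quantile-normalized and the deposited scale. It was 0 with a pseudocount of 1, 4 with the dimmer probe sets removed, 5 with array weights and 9 without the first array of both groups. It ranged from 0 to 4 when one array was left out. The number called lower was 0 under every setting run. With the replicate block the count stayed at 2, petN (limma adjusted p = 0.033) and rbcL (0.048). The main fit did not take the replicate numbers as pairs, since the labels state no pairing. Over all probe sets the deviations of same-numbered arrays from their group means correlated at 0.32, 0.029 and 0.11. The photosystem II median was 0.0085 as deposited and -0.060 with median centring, against 0.19, and ranged from -0.0053 to 0.24 with one array left out. The cytochrome b6f median was 0.43 without the first array of both groups, against 0.15, and 0.079 to 0.43 with one array left out. Signs turned with the scale for atpB (-0.34 as deposited, -0.41 with median centring) and psaB (-0.16 and -0.23). The log2 change of petD was 0.12 once both first arrays were dropped. Over the fits that lacked a single array that of petD ran from -0.39 to 0.24, of atpE from -0.10 to 0.012, and of psbA from -0.33 to 1.01. The causes of these shifts were not tested. Over all probe sets the calls numbered 473, against 148 with a pseudocount of 1, 889 with array weights, 533 without both first arrays and 105 to 884 with one array left out. Every member had 1 probe set, so averaging probe sets changed no value.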

Other observations

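The other protein genes of the plastid genome, of which 26 had a probe set of their own, had a median log2 change of 0.27 after quantile normalization and 0.24 as deposited, with 20 and 18 positive. None was called by limma, and 9 (34.6%), all higher in Br, had an unadjusted p under 0.05 on either scale. Of all probe sets 8.23% had one with higher values in Br on the quantile-normalized scale and 9.58% as deposited. Those named here were chosen after their values were seen. The gene rps2, for a protein of the small ribosomal subunit, lies just before atpI in its operon. It read 1488, 1042 and 1168 in Br against 697, 194 and 182 in Ag, without overlap (log2 change 2.03 ± 0.48, limma adjusted p = 0.095; 2.00 and 0.090 as deposited). The genes ycf3 and ycf4, for assembly factors of photosystem I known from tobacco and Chlamydomonas, had log2 changes of 1.51 (limma adjusted p = 0.12) and 1.12 (0.12). The polymerase genes rpoA, rpoB, rpoC1 and rpoC2, for the bacterial-type enzyme that transcribes most of the photosynthesis genes, had 0.03, 0.73, 0.11 and 1.33.

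Of 18 measured nuclear genes on a list matched by symbol, limma called 1 (5.56%) higher and 0 lower in Br. Of all probe sets 0.963% were called higher and 1.12% lower on the quantile-normalized scale. The list was meant for plastid transcription and RNA factors, and not all of its genes act on plastid RNA. An unadjusted p under 0.05 was reached by 3 (16.7%) on the quantile-normalized scale, all higher. Of all probe sets 8.23% had one with higher values in Br on that scale. The called one was CRR28, for a pentatricopeptide repeat protein that edits ndh transcripts. It read 51.1, 45.2 and 37.3 in Br against 21.8, 17.3 and 20.7 in Ag, without overlap (log2 change 0.69 ± 0.13, limma adjusted p = 0.049; 0.75 and 0.042 as deposited). The probe set was dim, and its Ag values lay below the median intensity of those arrays, 35.8, 32.3 and 34.5.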
